A study of Citrus sinensis with 24 samples.

Results

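The genes described here are the 100 whose levels varied least among the well expressed genes of developing sweet orange fruits. They were chosen by their own values. Levels are given in CPM, the reads of a gene per 1e+06 counted reads of its library. A gene had to reach at least 50 CPM in all 24 libraries, which 2286 of the 24166 genes in the table did. Of these, the 100 with the smallest standard deviation (SD) of log2 CPM over the 24 libraries were taken. The small spread of these genes is therefore a description and not a result, and their differences between groups are given without a test.

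The libraries came from fruits of field grown trees of 4 sweet orange (Citrus sinensis) varieties at 142 and 45 days post anthesis (DPA). Fruits of Succari are acidless, those of Bingtang are low in acid, and those of Newhall and Xinhui have normal acidity. Each of the 8 groups had 3 biological replicates, and the libraries held 3.8e+06 to 5.9e+06 counted reads. The tissue is labelled only as fruit, and a lower share of cells that use a gene and less RNA per cell cannot be told apart.

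Genes that every living cell uses are often called housekeeping genes. They serve in protein synthesis and turnover, transport within the cell, energy supply and the cytoskeleton. Because their RNA tends to keep a steady share of the total, such genes are used as references: the RNA of a gene of interest is divided by that of a reference gene, so that differences in the amount or quality of the RNA cancel out. Fleshy fruits are a hard case for this, since the make-up of their RNA changes strongly as they grow and ripen. Actin, a protein of the cytoskeleton, is among the references used most in plants, and the actin gene Cs1g05000 was the reference for quantitative PCR (qPCR) in these fruits. None of the 24166 gene IDs was found in the reference table of named genes (0 matches). Homologs or descriptions are known for actin and for most of 72 other listed genes of the series, and 0 of the 100 are among these 72. The members are therefore given by ID only, without a function, and the tissue label could not be checked against marker genes.

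The 100 genes were moderately expressed. Their mean levels lay between 58.9 CPM for Cs6g07560 and 938 CPM for Cs8g05340, with a median of 114 CPM, against a median of 147 CPM for the 2186 other genes over the floor. CPM counts reads and not transcripts, and gene lengths were not used here, so these levels do not rank the genes by their number of transcripts. Together the 100 genes took 1.47 to 1.67% of the reads of a library. Genes of low level were more common among them than genes of high level. Of the 562 genes over the floor with a mean under 100 CPM 44 were taken (7.83%), against 33 of 976 at 100 to 200 CPM (3.38%), 21 of 556 at 200 to 500 CPM (3.78%) and 2 of 192 at 500 CPM or more (1.04%). The 2 genes of the last class were Cs8g05340 and Cs5g06870. The median SD of all genes over the floor was 0.24 in the class of lowest level and 0.60 in that of highest level. The floor bears on these values, since a gene of low mean passes it only if no library lies far below that mean. They therefore do not show that genes of lower level are steadier. The IDs were spread over all prefixes of the annotation, with 16 of 296 genes over the floor under Cs7g and 15 of 219 under Cs1g, 5 of 229 under Cs3g, 4 of 149 under Cs9g and 12 of 247 under orange1.1t.

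The SD of log2 CPM of the 100 genes lay between 0.0827 and 0.143 with a median of 0.131, which corresponds to 5.64 to 10.3% of the level. The highest CPM of a gene was 1.249 to 1.63 times its lowest over the 24 libraries (median 1.41). All 100 genes stayed under a 2-fold range, as did 871 of the 2186 other genes. The median SD of the 2186 genes was 0.33. Counting a limited number of reads alone gives a spread, which for the 100 genes had a median SD of 0.0595. Their observed SD was 1.33 to 6.38 times that from counting in the same gene, with a median of 2.07, against a median of 6.16 for the other genes.

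**Figure D1:**
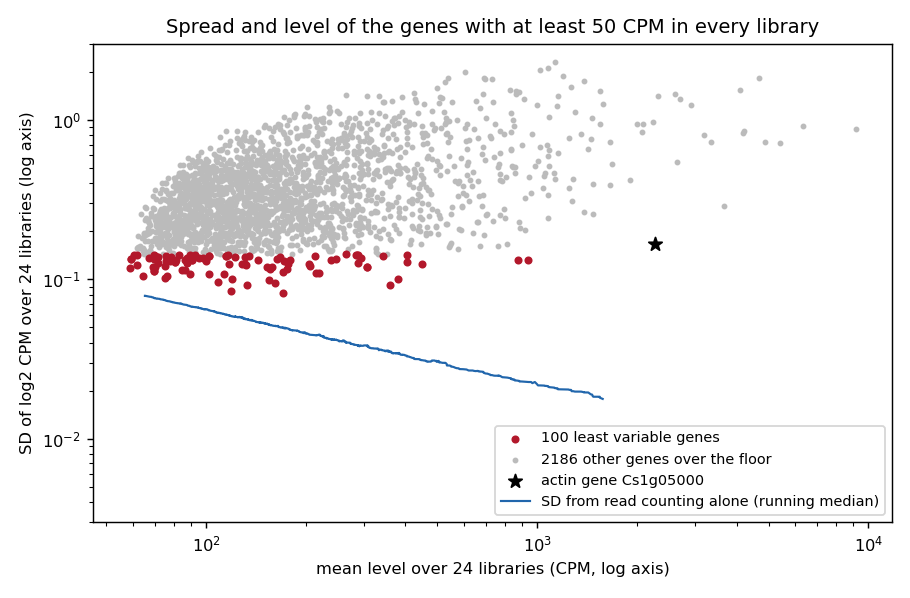
Standard deviation of log2 CPM over 24 libraries against the mean level in CPM (both axes logarithmic) for the 2286 genes over the floor; the 100 genes are red, the others grey, the actin gene Cs1g05000 a star, and the line is the running median of the spread from read counting alone. The 100 genes fill the band from 0.0827 to 0.143, most of them below 200 CPM, and the actin gene lies just above it at 0.166.

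The border of the set was narrow. The last members by rank were Cs7g26840, Cs9g07080 and Cs6g11930 with SD of 0.142848, 0.143276 and 0.143361. The next genes outside were Cs6g10090, Cs7g11360 and orange1.1t02860 with 0.14358, 0.143891 and 0.143996. The genes on either side of the border thus hardly differ in SD.

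The least variable gene was Cs7g06710. It had a lowest, median and highest level of 147.0, 172.9 and 189.9 CPM in the 12 libraries of 142 DPA, against 151.7, 170.7 and 191.7 CPM in the 12 libraries of 45 DPA. The stages covered nearly the same range, and the difference of their means was -0.00 on the log2 scale. Cs1g17960 followed, with a lowest, median and highest level of 104.6, 114.0 and 125.6 CPM at 142 DPA, against 116.5, 122.4 and 130.7 CPM at 45 DPA. Its level was lower at 142 DPA in each variety, with differences of -0.06 to -0.13 on the log2 scale, and the ranges of the stages overlapped. Cs1g21110 had 120.9, 134.6 and 140.8 CPM at 142 DPA, against 115.9, 130.2 and 145.6 CPM at 45 DPA. The higher expressed Cs6g13000 had 332.8, 369.1 and 416.1 CPM at 142 DPA, against 324.0, 350.3 and 377.4 CPM at 45 DPA. In each of these genes the ranges of the stages overlapped. The spread from counting alone was 0.0335 for Cs6g13000, against an observed SD of 0.0919.

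Of the other 6 among the 10 least variable genes, Cs4g05580 was the highest expressed. It had a lowest, median and highest level of 362.0, 397.0 and 442.9 CPM at 142 DPA, against 335.1, 370.4 and 392.9 CPM at 45 DPA, and its mean was higher at 142 DPA in each variety, by 0.07 to 0.15 on the log2 scale. Cs1g16230 was the lowest expressed of the 10, with 64.3, 74.9 and 90.8 CPM at 142 DPA, against 66.5, 75.04 and 81.8 CPM at 45 DPA. Its spread came close to that of counting, with an SD of 0.102 against 0.0733. The remaining 4 genes, Cs9g07880, Cs1g13980, Cs4g13250 and Cs7g02000, had mean levels of 161.8, 108.4, 154.7 and 119.9 CPM and SD between 0.0947 and 0.101.

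**Figure D2:**
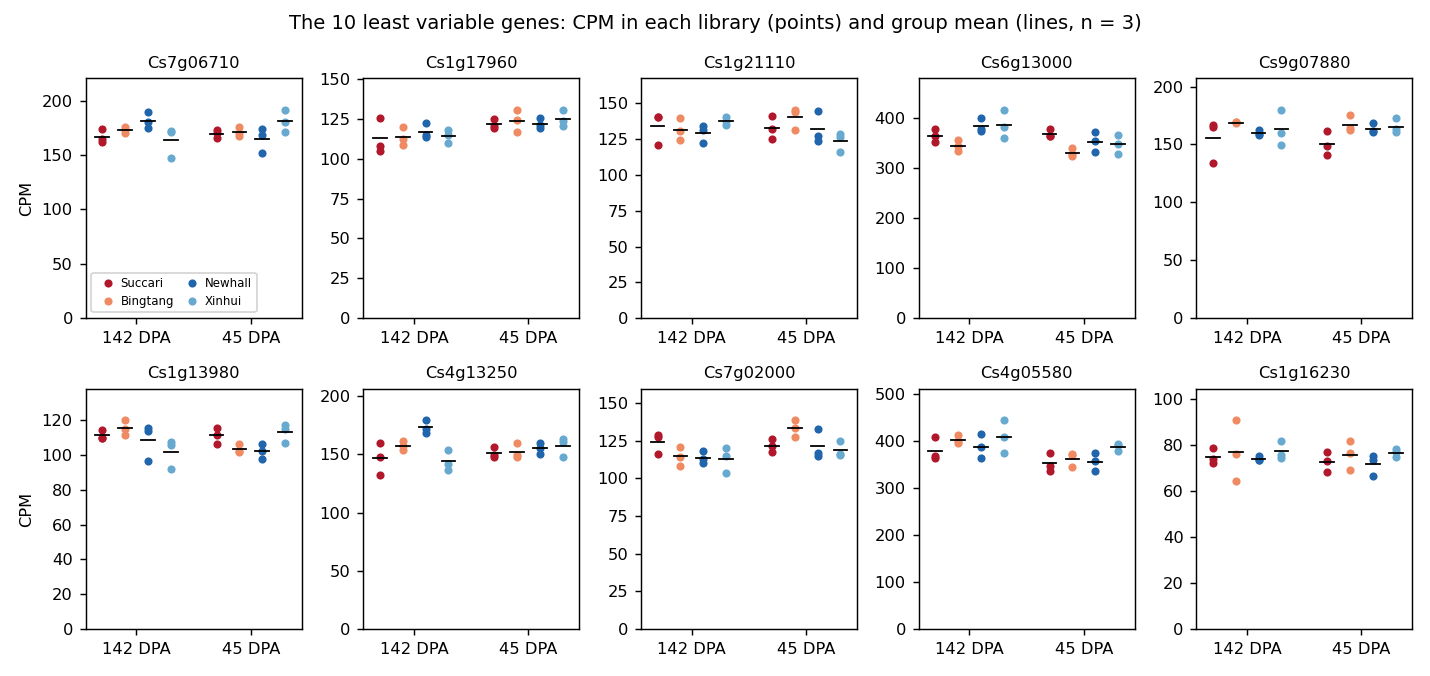
CPM of the 10 least variable genes in each library (points, coloured by variety) and mean of each group (lines, n = 3), with 142 DPA left of 45 DPA and each axis starting at 0. Each gene kept within a narrow band, and over all varieties the ranges of the stages overlapped in all 10 genes, while single groups of 3 libraries could lie apart, as for Cs4g05580 in Bingtang.

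The spread of the 100 genes was divided into a part between stages, a part between varieties, a part by which the stage difference varied between varieties, and a part between replicates of one group. Summed over the 100 genes, the stages held 14.7% of the squared deviations, the varieties 19.9%, the differing stage differences 24.9% and the replicates 40.4%. For the other genes over the floor the stages held 74.1% and the replicates 7.12%. The rule removes genes that change with stage, so these shares follow from the choice. In 30 of the 100 genes the replicates held more than 50%. The median SD within groups was 0.0926 for the 100 genes and 0.13 for the other genes, which lie closer together than the SD of the group means (0.10 and 0.31).

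A residual stage difference was left in some of the genes. Averaged over the 4 varieties, the difference between 142 and 45 DPA lay between -0.22 and 0.21 on the log2 scale, with a median of -0.00, and exceeded 0.1 in size in 33 genes and 0.2 in 2 genes. Of the 2186 other genes over the floor 1698 exceeded 0.2. The median size was 0.07 for the 100 genes and 0.44 for the others. The direction differed between varieties for most genes: 13 genes were higher at 142 DPA in all 4 varieties and 14 in none, while 33 genes were higher in 2 of the 4. The rule works against genes that change alike in all varieties, so mixed directions follow in part from the choice.

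Cs7g29220 was the gene most above zero. It had a lowest, median and highest level of 280.9, 306.3 and 338.9 CPM at 142 DPA, against 257.3, 264.9 and 277.1 CPM at 45 DPA. The stages did not overlap, and the difference was 0.28 in Succari, 0.24 in Bingtang, 0.14 in Newhall, and for Xinhui 0.20 on the log2 scale. Cs1g15600 came next, with 85.0, 103.7 and 115.9 CPM at 142 DPA, against 86.0, 91.3 and 96.5 CPM at 45 DPA. It was higher at 142 DPA in each variety (0.12 to 0.26), while 1 Xinhui library of 142 DPA lay below all libraries of 45 DPA.

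Cs7g31590 was the gene most below zero. It had a lowest, median and highest level of 59.2, 64.2 and 71.4 CPM at 142 DPA, against 65.2, 74.3 and 84.5 CPM at 45 DPA, with differences of -0.13 to -0.29 in the varieties. Cs7g08440 had 70.03, 80.8 and 89.9 CPM at 142 DPA, against 85.8, 91.1 and 101.5 CPM at 45 DPA, with differences of -0.13 to -0.26. Both were lower at 142 DPA in each of the 4 varieties, and the ranges of the stages overlapped.

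Within single varieties the stage differences were wider than their average. They lay between -0.40 and 0.28 in Succari, -0.40 and 0.32 in Bingtang, -0.28 and 0.38 in Newhall, and for Xinhui -0.33 and 0.40. The median size was 0.11 in Succari, 0.10 in Bingtang, 0.13 in Newhall, and for Xinhui 0.10, against 0.45, 0.52, 0.48 and 0.49 for the other genes in the same order of varieties. An example is orange1.1t01911. It had 156.1, 165.0 and 152.2 CPM in Xinhui at 142 DPA, against 120.5, 118.6 and 123.7 CPM in Xinhui at 45 DPA, a difference of 0.38. In Succari it had 135.5, 142.0 and 145.9 CPM at 142 DPA, against 151.5, 158.4 and 161.2 CPM at 45 DPA, a difference of -0.15. Over the 4 varieties these partly cancelled, which left an average of 0.08.

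**Figure D3:**
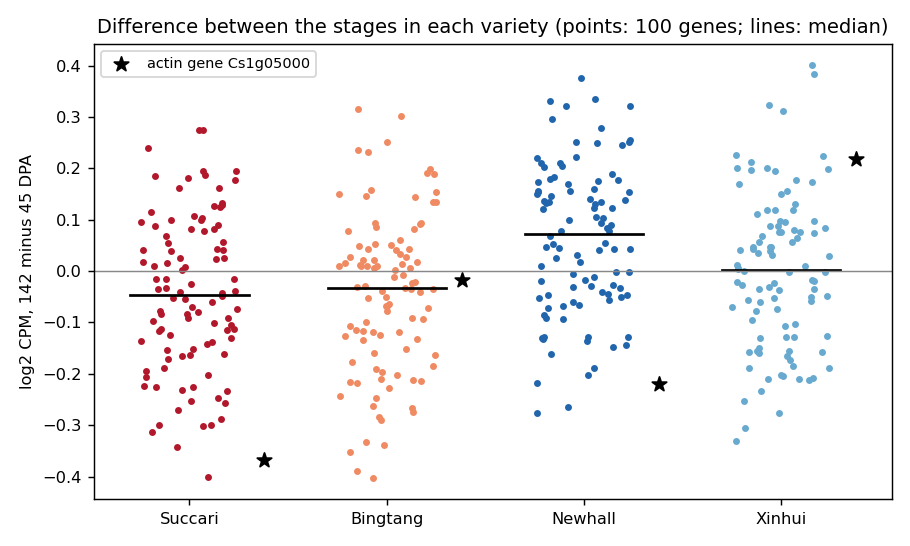
Difference of the mean log2 CPM between 142 and 45 DPA in each variety for the 100 genes (points, with the median as a line) and for the actin gene Cs1g05000 (star). Most genes lay within 0.2 of zero in every variety, with medians between -0.05 in Succari and 0.07 in Newhall, while the actin gene lay at the lower end in Succari and in the upper part in Xinhui.

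The sign of such small differences depended on the scale. With library totals as the scale, 49 of the 100 genes were above zero in the average stage difference. With TMM, the scaling of edgeR that assumes that most genes do not change, 30 were above zero, and with the median ratio scaling of DESeq2 23 were. TMM moved each difference by -0.05 and the median ratio by -0.07, against a median size of 0.07 for the differences themselves.

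Differences between varieties at 142 DPA passed 0.2 in size in 13 genes for Succari against the other 3 varieties. They passed it in 12 for Bingtang against Newhall and Xinhui, and in 22 for Newhall against Xinhui. The average stage difference passed it in 2 genes, but it averages over all varieties and rests on more libraries. Within single varieties the stage difference passed 0.2 in 21 genes in Succari, 24 in Bingtang, 22 in Newhall, and for Xinhui 19. These counts therefore do not show larger differences between varieties than between stages. At 142 DPA the acidless Succari differed from the mean of the other 3 varieties by -0.37 to 0.26 with a median of -0.05, and 29 of the 100 genes were above zero. The other genes over the floor had a median of -0.15. Cs7g01470 was the gene most below zero. It had 217, 237 and 258 CPM in Succari at 142 DPA, against a lowest, median and highest level of 279, 302 and 333 CPM in the 9 libraries of the other varieties. The groups did not overlap, and at 45 DPA Succari had 305, 292 and 304 CPM against 259, 286 and 298.5 CPM in the others, a difference of 0.09. Cs2g07060 was next, with 100.8, 105.1 and 134.9 CPM in Succari against 121.0, 141.8 and 148.5 CPM in the others. Here Succari replicates 1 and 2 lay below all other libraries of that stage, and replicate 3 lay among them.

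On the other side stood orange1.1t01089, with 113.7, 116.9 and 111.6 CPM in Succari at 142 DPA, against a lowest, median and highest level of 82.0, 97.0 and 107.3 CPM in the other varieties. The groups did not overlap, and the difference was 0.26. Cs5g09210 had 73.0, 81.3 and 69.4 CPM in Succari, against 54.8, 65.0 and 72.9 CPM in the others, with a difference of 0.24 and overlapping groups. Neither gene showed this difference at 45 DPA, where Succari minus the others was 0.00 for orange1.1t01089 and -0.06 for Cs5g09210. The change of the difference between the stages was not tested, since the libraries chose the genes.

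At 45 DPA Succari differed from the other varieties by -0.27 to 0.24 with a median of -0.00. In size 2 of the 100 genes exceeded 0.2, against 13 at 142 DPA. Of the 2186 other genes over the floor 604 exceeded it at 45 DPA, against 1248 at 142 DPA. Over all genes, the replicates also lay further apart at 142 DPA than at 45 DPA, in each of the 4 varieties and not in Succari alone. The 2 genes at 45 DPA were Cs5g06870 and orange1.1t01911. Cs5g06870, one of the highest expressed of the 100, had 798, 723 and 768 CPM in Succari at 45 DPA, against a lowest, median and highest level of 876, 917 and 967 CPM in the other varieties, without overlap. At 142 DPA the same gene had 842, 952 and 774 CPM in Succari, which lay within the 750 to 1051 CPM of the others. orange1.1t01911 had 151.5, 158.4 and 161.2 CPM in Succari at 45 DPA, against 118.6, 136.5 and 151.4 CPM in the others, next to each other without overlap. Cs6g10170, the next below zero, had 166, 160.2 and 159.4 CPM in Succari against 161.6, 187 and 200.4 CPM. Cs1g25230, the next above zero, had 75.4, 77.9 and 79.7 CPM in Succari against 63.4, 65.7 and 76.2 CPM. In both of these the groups overlapped.

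The other contrasts between varieties gave similar ranges. Bingtang, low in acid, minus the mean of Newhall and Xinhui lay between -0.30 and 0.21 with a median of -0.05 at 142 DPA, and between -0.20 and 0.24 with a median of 0.03 at 45 DPA. Newhall minus Xinhui, both of normal acidity, lay between -0.26 and 0.31 with a median of 0.04 at 142 DPA, and between -0.25 and 0.26 with a median of -0.02 at 45 DPA. These medians are on library totals, the scale of the choice. With TMM the median log2 fold change of the 100 genes for Newhall minus Xinhui was -0.13 at 142 DPA and 0.04 at 45 DPA, so both turned sign.

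For the background, the edgeR quasi-likelihood test was run over all 20739 genes that passed a filter on low counts (0.3 CPM or more in 3 or more libraries), with the 8 groups in one fit. For 142 minus 45 DPA, averaged over the varieties, 76.8% of all genes tested had an adjusted p under 0.05 at any size. Of the 100 genes 41 did, 8 higher (background 38%) and 33 lower (38.8%) at 142 DPA. In the single varieties 22 of the 100 were called in Succari (background 60.6%), 29 in Bingtang (62.1%), 33 in Newhall (60.3%) and 20 in Xinhui (59.5%). At 142 DPA 18 were called for Succari against the other 3 varieties (36.5%), 10 for Bingtang against Newhall and Xinhui (24%) and 24 for Newhall against Xinhui (22.4%). At 45 DPA the counts were 3 (10.7%), 0 (3.89%) and 1 (6.5%) in the same order of contrasts. For Bingtang at 45 DPA 18 of the 100 had an unadjusted edgeR p under 0.05, and DESeq2 called 2. For the average stage contrast 38.8% of all genes tested were called at 2-fold or more, and 0 of the 100. Over all contrasts the largest log2 fold change of any of the 100 genes was 0.46 in size. Nothing is read from the counts of the 100 genes, since the same libraries chose them.

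The direction of the calls followed the scale. All 24 genes called for Newhall against Xinhui at 142 DPA were lower in Newhall with TMM (background 11.7% lower and 10.6% higher). With library totals as the scale 9 were called higher and 3 lower, and with scaling by the 100 genes themselves 6 were called higher and 6 lower. The 18 calls for Succari at 142 DPA fell to 9 without Succari replicate 1 of 142 DPA and to 11 without its replicate 2.

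The mean of the 100 genes was compared between the libraries. The rule took genes of small spread over these same libraries and totals, so their mean is held near constant by the choice. This mean is therefore no independent gauge of the libraries. It was lowest in Succari replicate 1 of 142 DPA, at -0.10 on the log2 scale from the mean of all 24 libraries, followed by Xinhui replicate 3 (-0.06), Succari replicate 2 (-0.05) and Bingtang replicate 2 (-0.05), all of 142 DPA. It was highest in Newhall replicate 1 of 142 DPA (0.07). The 12 libraries of 45 DPA stayed between -0.02 and 0.03. The 4 lowest libraries were also the only 4 in which a single gene took more than 3% of the reads. Cs9g10390 took 5.74% in Succari replicate 1 and 3.44% in Succari replicate 2, and Cs7g25130 took 4.47% in Xinhui replicate 3 and 3.41% in Bingtang replicate 2. The 8 genes that reached 1% of the reads in any library took 13.1%, 8.86%, 7.79% and 5.89% of the reads of Succari replicates 1 and 2, Xinhui replicate 3 and Bingtang replicate 2, and 1.70 to 3.81% in the other 20 libraries.

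With these 8 genes left out of the library totals, the mean of the 100 genes was 0.04 in Succari replicate 1, 0.02 in Succari replicate 2, 0.00 in Xinhui replicate 3 and -0.01 in Bingtang replicate 2. The SD of the mean over the 24 libraries was then 0.0244, against 0.0402 with all reads in the totals. Without the 4 libraries it was 0.0274. A rule applied without the 4 libraries kept 55 of the 100 genes, and 79 were kept with the 8 genes out of the totals. Among the replicates of Succari at 142 DPA, replicate 3 stood apart. Over all genes the chi-square of the counts was 67.4 and 47.3 times its degrees of freedom for replicate 3 against replicates 1 and 2, while replicates 1 and 2 lay closer to each other. The next largest value of a pair was 24.5, for Xinhui replicates 2 and 3 of 142 DPA.

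**Figure D4:**
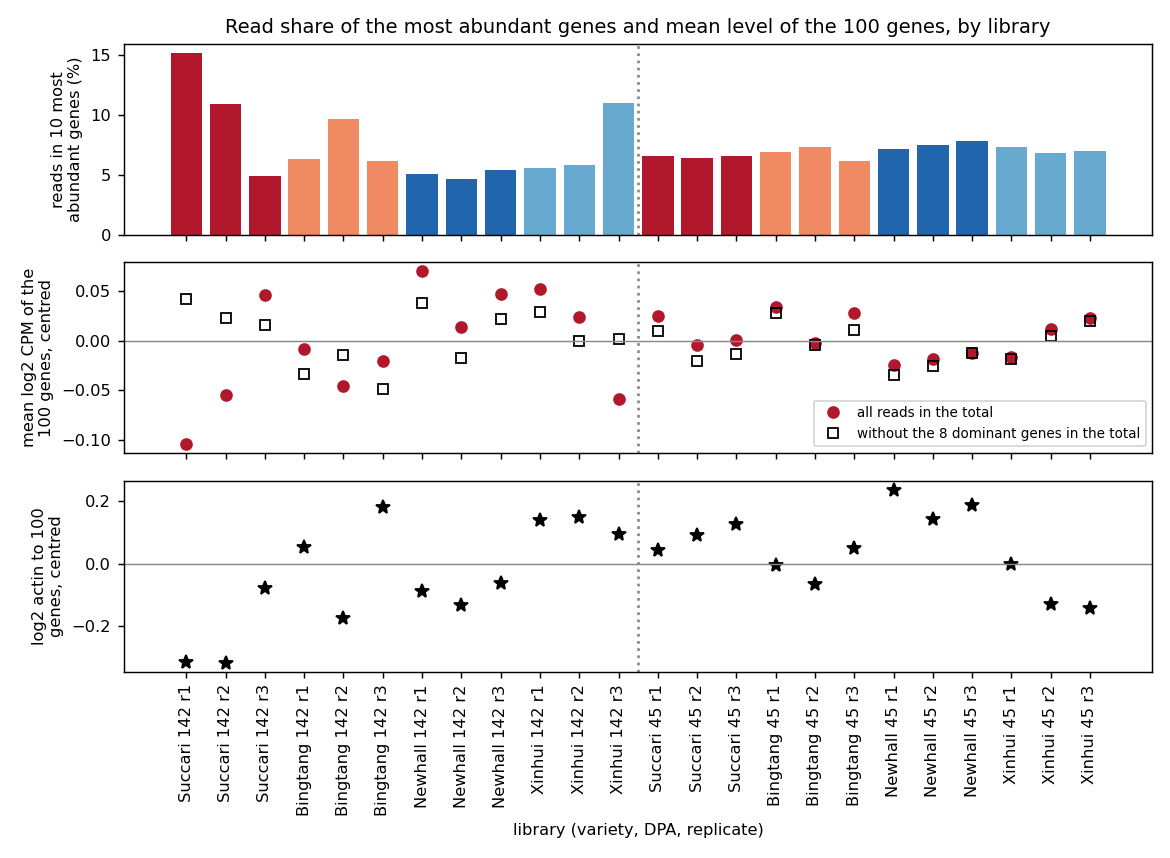
Share of reads in the 10 most abundant genes (top), mean log2 CPM of the 100 genes centred on all libraries (middle, with all reads in the total and with the 8 dominant genes left out) and log2 ratio of the actin gene to the 100 genes, centred (bottom), in each of 24 libraries, with 142 DPA left of the dotted line. The mean of the 100 genes was low in the 4 libraries with the highest read shares, and lay between -0.01 and 0.04 there with the 8 genes out of the totals.

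How the genes hold as references was measured in libraries that took no part in the choice. The rule was applied to 2 of the 3 replicates of every group, and the 100 genes so chosen were followed in the 8 libraries of the third. The genes chosen shared 76, 77 and 77 with the full set, when replicate 1, 2 or 3 was left out. Their median SD in the libraries left out was 0.146, 0.137 and 0.140, against 0.348, 0.344 and 0.329 for the other genes over the floor. In the libraries left out, 97, 94 and 92 of the 100 were among the least variable 25% of genes, and all 100 lay under the median of the other genes each time. The median SD in the libraries that chose them was 0.123, 0.126 and 0.125, slightly below that in the libraries left out. The actin gene had an SD of 0.194, 0.185 and 0.103 in the libraries left out. That was above the median of the genes chosen for replicates 1 and 2, and below it for replicate 3.

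Leaving out a variety changed the choice more. Genes chosen without Succari had a median SD of 0.162 in the 6 Succari libraries, against 0.296 for the other genes, and 55 were members of the full set. The corresponding values were 0.173 against 0.319 with 61 shared for Bingtang, 0.142 against 0.284 with 71 shared for Newhall, and 0.143 against 0.305 with 64 shared for Xinhui. Between 90 and 98 of the 100 genes lay under the median of the other genes in the variety left out, and 49 to 63 were among the least variable 25%. The actin gene had an SD of 0.242 in Succari, above the median of the genes chosen. It had 0.133 in Bingtang, 0.129 in Newhall, and for Xinhui 0.136, each below that median.

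With a stage left out, the choice changed most. Genes chosen at 142 DPA only had a median SD of 0.105 in the 12 libraries of 45 DPA, against 0.137 for the other genes, and genes chosen at 45 DPA only had 0.203 in the libraries of 142 DPA, against 0.271. The actin gene had 0.109 in the libraries of 45 DPA and 0.201 in those of 142 DPA, close to the medians of the genes chosen. These SD lie within one stage and do not hold the difference between the stages. Of the 100 genes least variable among the 12 libraries of 142 DPA, 31 were members of the full set. Their stage difference had a median size of 0.27, against 0.55 for the other genes, and 8 of the 100 differed by at least 2-fold between the stages, as did 727 of 2771 others. Of the 100 genes least variable among the 12 libraries of 45 DPA, only 10 were members of the full set. Their median stage difference was 0.47 in size, against 0.59, and 22 of the 100 differed by at least 2-fold, as did 1042 of 3472 others, the largest by 4.69 on the log2 scale. The 2 sets had 8 genes in common.

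**Figure D5:**
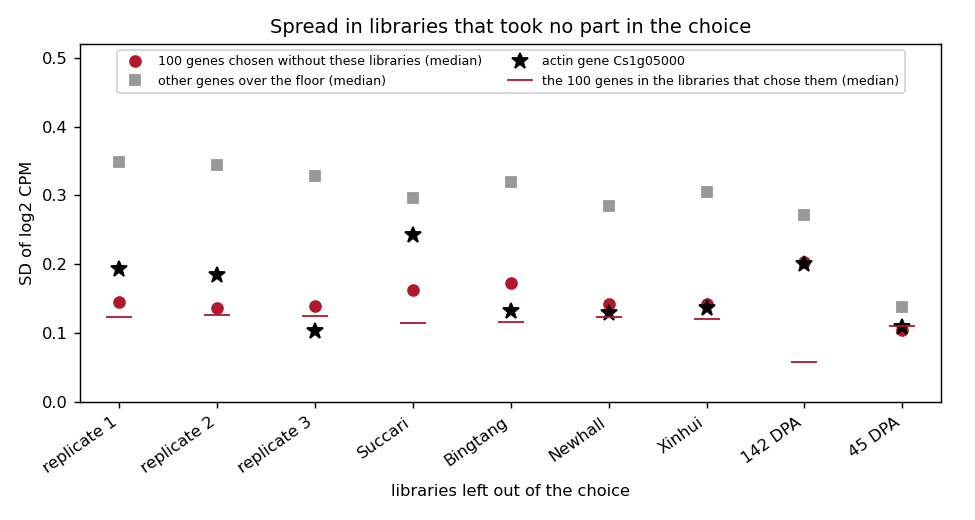
SD of log2 CPM in libraries left out of the choice, by which libraries were left out: median of the 100 genes chosen without them (red points), median of the other genes over the floor (grey squares), the actin gene Cs1g05000 (stars), and median of the 100 genes in the libraries that chose them (red dashes). The genes chosen stayed near 0.14 when a replicate was left out and stood at 0.20 in the libraries of 142 DPA when these were left out. The actin gene lay above them in some cases and below them in others.

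The residual stage differences came back in the replicate left out. Across the 100 genes chosen each time, the average stage difference in the replicates used and in the replicate left out had a Pearson correlation of 0.74, 0.65 and 0.73, and 79, 74 and 71 genes had the same sign. This is a description over 100 genes that share their libraries, and a shift of a whole library moves all of them. For Succari against the others at 142 DPA the correlation was 0.57, 0.61 and 0.41, with the same sign in 57, 71 and 46 genes.

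With a replicate left out, a mean over several genes varied less than a single gene. There the least variable gene of the choice had an SD of 0.124, 0.0942 and 0.143 in the libraries left out. The mean log2 CPM of the first 10 genes had 0.0598, 0.0280 and 0.0492, and that of all 100 had 0.0716, 0.0355 and 0.0489. The step to 10 genes lowered the SD in each of the 3 cases, while the mean of 100 genes had a higher SD than that of 10 in 2 of the 3 cases. With the 142 DPA libraries left out it went the other way for 10 genes, with an SD there of 0.115 for their mean, against 0.0918 for the least variable gene. The mean of all 100 genes had 0.0702 there, below that of the least variable gene.

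Ratios between members do not depend on library totals. Over the 4950 pairs of the 100 genes the SD of the log2 ratio lay between 0.0732 and 0.258 with a median of 0.168. The steadiest pair was Cs3g01570 and Cs7g07310, whose ratio stayed between 1.01 and 1.201 (median 1.07) in the 24 libraries. In Bingtang, Cs3g01570 had 158.0, 149.5 and 151.6 CPM at 142 DPA, against 201.6, 168.4 and 190.8 CPM at 45 DPA. Cs7g07310 had 156.1, 127.8 and 137.6 CPM in Bingtang at 142 DPA, against 178.8, 162.6 and 162.8 CPM at 45 DPA. The pair thus moved together, by -0.28 and -0.26 between the stages in that variety, and a steady ratio did not mean a steady level. The mean SD of the ratio of a gene to all the others was lowest for Cs7g06710 (0.139), which also had the smallest SD, and highest for Cs5g09210 (0.198), with a median of 0.170.

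The actin gene Cs1g05000 was not chosen by values of these libraries, so it could be tested. With 1691 to 2617 CPM it was more highly expressed than any of the 100 genes, and it ranked 214 of 2286 by its SD of 0.166. That rank is over the libraries that chose the 100 genes. In libraries left out of the choice, its SD lay above or below the median of the genes chosen, depending on the libraries. It averaged 1883 ± 287 CPM in Succari, 2266 ± 299 CPM in Bingtang, 2185 ± 89.0 CPM in Newhall and 2481 ± 144 CPM in Xinhui at 142 DPA, against 2412 ± 49.7, 2283 ± 117, 2543 ± 76.6 and 2132 ± 88.2 CPM in the same varieties at 45 DPA (SD, n = 3 each). In Succari at 142 DPA its level was 1691, 1746 and 2213 CPM, so that replicate 3 stood apart from replicates 1 and 2.

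Between 142 and 45 DPA the actin gene, fitted with TMM, fell in Succari, with a log2 fold change of -0.36 ± 0.0949 (SE, edgeR adjusted p = 0.0021). It fell in Newhall, with -0.40 ± 0.0949 (edgeR adjusted p = 9.73e-04). It rose in Xinhui, with 0.27 ± 0.0948 (edgeR adjusted p = 0.0196). In Bingtang the value was -0.07 ± 0.0948 and did not pass the edgeR test (adjusted p = 0.514). The SE are nearly equal because the 8 groups share an estimate of the spread. The SD of actin itself at 142 DPA was 287 CPM in Succari and 89.0 CPM in Newhall. The SE and p therefore do not reflect the spread of each group. The stage change differed between the 4 varieties in a joint edgeR test of the interaction (adjusted p = 0.00145 with TMM and 0.00527 with scaling by the 100 genes), which was added after the data were seen. At 142 DPA the actin gene was lower in Succari than in the other varieties, with -0.29 ± 0.0787 (edgeR adjusted p = 0.00613). It was lower in Newhall than in Xinhui at 142 DPA, with -0.35 ± 0.0949 (edgeR adjusted p = 0.0103), and higher in Newhall than in Xinhui at 45 DPA, with 0.32 ± 0.0948 (edgeR adjusted p = 0.0479). The call in Xinhui was lost without its replicate 2 of 142 DPA (0.23, edgeR adjusted p = 0.0696), that in Succari against the others without Succari replicate 2 (-0.24, edgeR adjusted p = 0.0578), and that at 45 DPA without 16 of the 24 libraries taken singly, with an edgeR adjusted p of up to 0.173 without Xinhui replicate 3. With library totals as the scale the calls in Newhall (-0.22, edgeR adjusted p = 0.0866) and Xinhui (0.22, edgeR adjusted p = 0.089) were lost, as were both differences between Newhall and Xinhui (-0.18 at 142 DPA and 0.25 at 45 DPA).

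With the 100 genes as the scale the values of the actin gene were -0.32 in Succari (edgeR adjusted p = 0.0046), 0.03 in Bingtang (0.767), -0.28 in Newhall (0.0107), and for Xinhui 0.22 (0.0456). Both differences between Newhall and Xinhui missed the threshold on this scale, at -0.22 at 142 DPA (edgeR adjusted p = 0.084) and 0.28 at 45 DPA (edgeR adjusted p = 0.0747). The average over the varieties was -0.14 ± 0.0474 with TMM (edgeR adjusted p = 0.00926) and did not pass the edgeR test with the 100 genes as the scale (-0.09, adjusted p = 0.0872) or with library totals (-0.09, adjusted p = 0.13). The average joins varieties whose values had opposite signs. The ratio of actin to the mean of the 100 genes was also tested by permuting the stage labels within each variety. This exact test gave p = 0.16 for the average over the varieties. In Succari, Newhall and Xinhui the exact test gave p = 0.1, the smallest possible with 3 against 3 libraries. In Bingtang the exact test gave p = 0.8. In the ratio to the other genes, the mean SD of actin against the 100 genes was 0.192, which 2 of the 100 genes exceeded in their own mean SD. The same libraries chose the 100 genes, but not actin.

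As a scale for all other genes, the 100 genes gave nearly as many calls as TMM for the stage contrast. Their log2 factors lay between -0.10 and 0.07, those of TMM between -0.15 and 0.14. Small factors of the 100 genes follow from the choice, which used library totals. For 142 minus 45 DPA, averaged over the varieties, 15919 genes were called with edgeR under scaling by the 100 genes and 15920 under TMM, with 15519 in common. The number of calls hardly depended on the scale, with 15851 under library totals and 15811 under the actin gene alone. It therefore does not tell how well the 100 genes serve as a scale. From TMM to the 100 genes, the median of all genes moved by 0.05. It moved by 0.10 for the stage contrast in Bingtang and by 0.12 in Newhall. The largest effect was on Newhall against Xinhui at 142 DPA, where the shift was 0.12 and 3400 genes were called higher and 1679 lower under scaling by the 100 genes, against 2203 higher and 2436 lower with TMM.

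Scaling by the actin gene alone changed the picture for Succari. At 142 DPA 9023 genes were called for Succari against the other varieties, 8221 higher and 802 lower. With the 100 genes as the scale it was 7514 genes, 4872 higher and 2642 lower, and with TMM 7563 genes, 4510 higher and 3053 lower. For Newhall against Xinhui the actin scale gave 6321 higher and 839 lower genes at 142 DPA, and 360 higher and 3971 lower at 45 DPA.

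Of the 72 genes listed as related to the sugar/acid ratio, 2 reached the floor and neither was a member. Cs1g25210, whose Arabidopsis homolog is the ribosomal protein EMB2296, ranked 1568 by its SD of 0.427, with 548 to 1817 CPM and a stage difference of -0.62. Cs9g07750, related to APS1, an ATP sulfurylase of sulfate assimilation, ranked 1822 by its SD of 0.52, with 212 to 703 CPM and a stage difference of -0.71.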

How the data were processed

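RNA-seq libraries of fruits (4 varieties, 2 stages, 3 replicates each) were analysed from 1 table of counts of unique reads per gene, as deposited by the authors without normalization, although its name speaks of RPKM. The aligner is not given in the sources used here, nor is the build. All columns belong to a sample. CPM were computed from the library totals in the table headings, with dashes read as 0. The members were taken by the stated rule, and members, lists and alternatives were chosen with earlier results of these data known. The named genes are the 10 of smallest SD, the 3 on either side of the border, the 2 most above and below zero in the average stage difference and in Succari at each stage, the highest and lowest expressed, the steadiest pair, actin and any listed gene over the floor. orange1.1t01911 in Xinhui was singled out as an example after its values were seen.

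Tests used edgeR 4.0.16 in R 4.3.3 (TMM, quasi-likelihood, 8 groups in 1 fit, Benjamini-Hochberg over 20739 genes), for which the replicates set the spread. Alternatives were DESeq2 1.42.0, other scalings, filters, floors and measures of spread, a replicate block, and each library, variety and stage left out. Replicates differed by more than sampling noise. The chi-square was 5.70 to 67.4 times the degrees of freedom at 142 DPA, against 1.49 to 2.84 at 45 DPA. The fit shares an estimate of the spread over both stages and does not allow for this difference. Tested on simulated counts for the average stage contrast (20739 genes), edgeR called 54% of genes changed 1.25-fold, 94% at 1.5-fold, 98% at 2-fold and 100% at 4-fold, and 7 unchanged genes. In the simulation only a small share of the genes changed, as many up as down, and none of them was of low count. In the data 76.8% of genes were called for this contrast, so these rates need not hold there. Other work used Python 3.11.15, numpy 2.4.6, pandas 2.3.3 and matplotlib 3.10.9.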

Additional observations from a re-analysis of the deposited data

Results flagged for a closer look

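The stage change of the actin gene Cs1g05000 differed between the 4 varieties (edgeR joint test of the interaction over 20739 genes, adjusted p = 0.00145), among 7106 genes called in that test. Its log2 fold change for 142 minus 45 DPA was -0.36 in Succari, -0.07 in Bingtang, -0.40 in Newhall, and for Xinhui 0.27. With the 100 genes as the scale the adjusted p was 0.00527 with edgeR, and 7408 genes were called.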

How the results depend on the processing

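The choice of the 100 genes depended on its settings. Of the 100, 63 were kept with TMM scaled CPM, 58 with the median ratio, 47 with a floor of 100 CPM, 49 with the median absolute deviation in place of the SD, 55 without Succari, 61 without Bingtang, 64 without Xinhui, 31 with 142 DPA only, 10 with 45 DPA only, and 55 without the 4 libraries with a gene over 3% of the reads, an alternative chosen after seeing the data. With single libraries left out 81 to 97 were kept (81 without Succari 142 DPA replicate 1), and 72 genes were kept in every such choice. Members above zero in the stage difference numbered 30 with TMM and 23 with the median ratio, against 49. For the average stage contrast, with edgeR, single libraries left out gave 15669 to 15912 calls and 37 to 46 called members, and for Succari at 142 DPA 5165 to 7832 calls and 9 to 26 called members (9 without Succari 142 DPA replicate 1, 11 without replicate 2). The average stage change of actin was -0.0918 with library totals and -0.0873 with the 100 genes as the scale, and -0.17 to -0.12 with single libraries left out. In Bingtang it was 0.0338 with the 100 genes as the scale, and -0.14 to -0.00 with single libraries left out. In Newhall it was -0.22 with library totals, and -0.43 to -0.35 with single libraries left out. In Xinhui it was 0.22 with library totals, and 0.23 to 0.30 with single libraries left out, the lowest without Xinhui 142 DPA replicate 2 (edgeR adjusted p = 0.0696). In Succari it was -0.46 to -0.32, for Succari against the others at 142 DPA -0.38 to -0.24, and for Newhall against Xinhui -0.38 to -0.32 at 142 DPA and 0.29 to 0.36 at 45 DPA, with single libraries left out. The causes of these moves were not tested. The replicate numbers follow the order of the libraries within a group, and do not always match the numbers in the library titles. Libraries of the same replicate number did not deviate together (correlations of -0.158 to 0.139, 1 of 84 pairs over 0.1). Those of different replicate number gave -0.164 to 0.129, with 5 of 168 pairs over 0.1. A pairing by the numbers in the titles was not tested. With the replicate number as a block 15879 genes were called for the stage contrast and 7550 for Succari. Depth limits the lower expressed members most, whose spread comes closest to that of counting.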
